A study of Mus musculus with 2 samples.

Results

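Fragments of 5S ribosomal RNA were described in J1 cells, an embryonic stem cell line from the mouse strain 129S4/SvJae. They were taken as the read sequences of 15 to 17 nt with an exact, full-length sense match in an annotated 5S gene (ribosomal RNA genes of the GENCODE M21 annotation whose symbols start with n-R5s, Rn5s or Gm, without Gm42418 and Gm26917). The rule found 199 distinct sequences among the 96471 sequences of that length. Both groups carried LIF (1000 U/mL, a cytokine that keeps mouse stem cells undifferentiated). The treated group had 24 h with 3 µM SB431542, a small molecule that blocks the type I receptor kinases through which TGF-beta, activin and Nodal signal, and the control group an equal volume of the solvent DMSO. Each group had 1 library, so the spread within a group is unknown and no test was made. All intervals are 95% intervals and hold counting error only. The files hold no read above 17 nt, so a fragment described here can be the end or the middle of a longer one, and the totals below count a length class, which is less than the depth of the library.

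The DMSO library held 990296 reads of 15 to 17 nt and the SB431542 library 517535. All 5 annotated hairpins of the stem cell marker list, of the miR-290-295 cluster, had reads. These reads numbered 39310 with DMSO (3.97% of 15 to 17 nt reads) and 10442 with SB431542 (2.02%). Mir293 alone supplied 38937 and 10364 of them, so the other hairpins of the list had few. No read of the 5 hairpins of the primed pluripotent list was found. The fibroblast and feeder list had 64 and 11 reads, from 3 of its 5 hairpins, and the blood list 1 and 0.

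5S ribosomal RNA is a small RNA of the large ribosomal subunit. RNA polymerase III transcribes it from its own repeated genes, away from the locus of the other ribosomal RNAs, using a promoter that lies inside the gene and is bound by TFIIIA. Before it enters the ribosome it is bound by the ribosomal proteins Rpl5 and Rpl11. Its 5′ and 3′ ends pair with each other, so that the RNA has a closed stem from which the other helices branch.

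The annotation holds 352 such genes, with 304 different sequences. The commonest sequence is shared by 32 genes, Rn5s among them, is 119 nt long in the annotation, and served as the reference on which positions were counted, from 1 at the 5′ end. All 32 of these genes lie in an array of 51 copies on the minus strand of chromosome 8, between 123538786 and 123623745 (GRCm38), outside other genes annotated on that strand. Of all 352 copies, 263 lie outside other genes on their strand, 79 in an intron and 10 overlap an exon. The other 320 copies have a median identity to the reference of 80% over aligned bases. At least 1 of the 199 sequences was held by 190 copies and none by the other 162. The leading fragments lie at bases 34 to 50 and bases 98 to 112. The leading sequences of each block are shown because most 5S reads are theirs, and capitals mark the bases that fall within 34 to 50 or 98 to 112.
Bases 98 to 112: GGAATACCGGGTGCT
Bases 97 to 112: gGGAATACCGGGTGCT
Bases 96 to 112: tgGGAATACCGGGTGCT
Bases 98 to 113: GGAATACCGGGTGCTg
Bases 98 to 114: GGAATACCGGGTGCTgt
Bases 34 to 50: CTCGTCTGATCTCGGAA
Bases 34 to 49: CTCGTCTGATCTCGGA
Bases 34 to 48: CTCGTCTGATCTCGG
Bases 35 to 50: TCGTCTGATCTCGGAA
Bases 35 to 49: TCGTCTGATCTCGGA
Bases 36 to 50: CGTCTGATCTCGGAA

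A lone sequence of 15 nt, bases 98 to 112, made up most of the 5S reads. It had 9076 of 12456 5S reads with DMSO (72.9%, Clopper-Pearson interval 72.1 to 73.6) and 3736 of 5893 with SB431542 (63.4%, 62.2 to 64.6). It ranked 11 among all 15 to 17 nt sequences of the DMSO library and 16 in the SB431542 library. Among reads of exactly 15 nt it held 4.57% and 3.53%. A second block, at bases 34 to 50, followed with the 17 nt sequence of bases 34 to 50 (696 and 572 reads) and the 16 nt sequence of bases 34 to 49 (422 and 376 reads). The remaining sequences were scattered: 18 of the 199 had at least 50 reads over both libraries, another 4 had 40 to 49, and 66 had a single read. Reads of 109 sequences were found in both libraries, of 58 with DMSO alone and of 32 with SB431542 alone, and the SB431542 file is the smaller. Thus 167 of the 199 were seen with DMSO and 141 with SB431542. Over all 96471 sequences of 15 to 17 nt, 71589 were seen with DMSO and 42410 with SB431542. A sequence with a single read can be found in 1 library only.

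The share of all 5S fragments among 15 to 17 nt reads was 1.26% in the DMSO library (1.24 to 1.28) and 1.14% in the SB431542 library (1.11 to 1.17). The log2 ratio of the shares, SB431542 to DMSO, was -0.14 (-0.19 to -0.099), and it had the opposite sign per miRNA hairpin read (0.68). That scale counts 80378 hairpin reads with DMSO and 23697 with SB431542. Mir293 alone supplied 38937 and 10364 of them, so the scale depends largely on a lone hairpin. The 98 to 112 sequence stood at 0.916% of 15 to 17 nt reads with DMSO and at 0.722% in the SB431542 library, which is 1.27-fold lower (log2 -0.34, -0.40 to -0.29), but higher per miRNA hairpin read (0.48). The other 198 sequences together made up 0.341% with DMSO (0.330 to 0.353) and 0.417% with SB431542 (0.399 to 0.435), a log2 ratio of 0.29 (0.21 to 0.37). Without the leading sequence the 5S share was higher in the SB431542 library on each of the 5 scales tried (0.082 to 1.11).

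**Figure D1:**
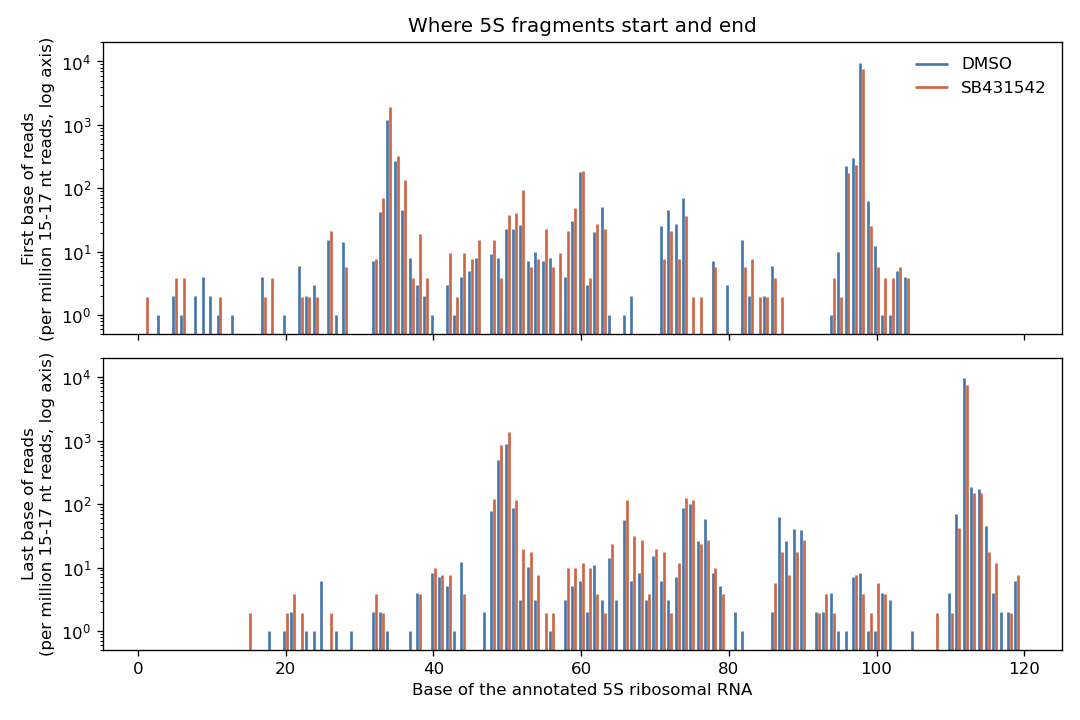
First base (upper) and last base (lower) of the 5S reads along the annotated 119 bases of 5S ribosomal RNA, scaled to 1000000 reads of 15 to 17 nt, on a log axis, for the DMSO and the SB431542 library (1 each). Reads pile up from base 34 to base 50 and from base 98 to base 112 in both libraries, and few start or end at the annotated ends of the RNA.

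The ends of the annotated RNA were nearly empty. Reads starting at bases 1 to 3, the 5′ end, numbered 1 with DMSO and 1 with SB431542, which is 0.0080% (0.00020 to 0.045) and 0.017% (0.00043 to 0.095) of the 5S reads. The DMSO read was the sequence of bases 3 to 18. Reads ending in the last 3 bases, the 3′ end, numbered 10 with DMSO (0.080%, 0.039 to 0.15) and 5 with SB431542 (0.085%, 0.028 to 0.20). The most abundant of these, bases 104 to 119, had 4 and 2 reads. Mature 5S RNA can carry T residues at its 3′ end that the annotated gene does not include, so reads running past base 119 were counted separately. Reads with 1 added T numbered 11 and 5, and none with 2, 3 or 4 added T was found. Internal fragments made up 98.5% of the 5S reads with DMSO and 98.3% with SB431542, the rest being these end reads and those with no place on the reference.

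Over both libraries together no base of the reference was without a read, bases 1 and 2 being covered by 1 SB431542 read and 0 DMSO reads, and 162 of the 312 possible windows of 15 to 17 nt were seen. The ends of the fragments were sharper than this coverage. Base 112 was the last base of 76.5% of the 5S reads with DMSO (75.7 to 77.2) and 66.4% with SB431542 (65.2 to 67.6). With base 112 as the last base, reads of 17, 16 and 15 nt start at bases 96, 97 and 98. Of these the 16 nt sequence had 238 and 92 reads and the 17 nt sequence 208 and 86, against 9076 and 3736 at 15 nt. From the start at base 98, reads also ran on to base 113 (159 and 66 reads) and base 114 (156 and 75 reads). A start at base 98 thus held 75.4% of the 5S reads with DMSO and 65.8% with SB431542. In the second block the last base was 50 for 7.15% and 11.9% of 5S reads and 49 for 3.98% and 7.55%, and the start was base 34 for 9.51% and 16.9%.

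The minimum free energy fold of the reference, computed with RNAfold, pairs 78 of the 119 bases. It pairs 11 of the 15 bases of the 98 to 112 fragment. Of the 17 bases from 34 to 50 it pairs 8. This is a prediction from the sequence and not a measurement.

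The blocks differed in the direction of their ratio. Reads starting at bases 31 to 40 numbered 1563 with DMSO and 1291 with SB431542, 12.5% (12.0 to 13.1) and 21.9% (20.9 to 23.0) of the 5S reads. Per 15 to 17 nt reads they were higher in the SB431542 library, with a log2 ratio of 0.66 (0.55 to 0.77). Reads starting at bases 91 to 100 numbered 10003 and 4106, 80.3% (79.6 to 81.0) and 69.7% (68.5 to 70.8), with a log2 ratio of -0.35 (-0.40 to -0.30), which was above 0 per miRNA hairpin read (0.48). The difference between these log2 ratios does not depend on the scale and was 1.01 (0.89 to 1.13). It was 1.40 (1.02 to 1.78) among reads of 15 nt, 1.09 (0.77 to 1.41) at 16 nt and 0.88 (0.59 to 1.18) at 17 nt, and 1.05 (0.84 to 1.26) without the 98 to 112 sequence. These intervals hold counting error alone, and with 1 library each it cannot be known whether replicate libraries would differ as much.

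**Figure D2:**
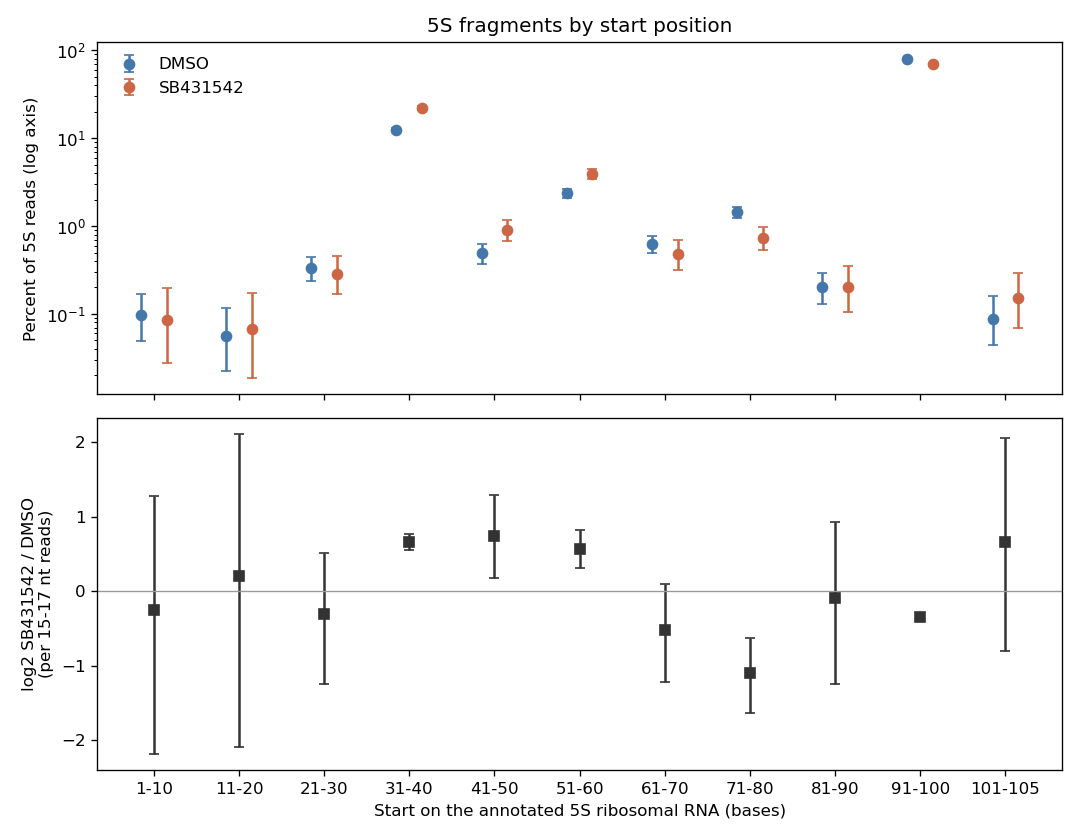
Upper, the share of the 5S reads starting in each 10-base stretch of the reference (percent, log axis) in the DMSO and the SB431542 library; lower, the log2 ratio of SB431542 to DMSO per 15 to 17 nt reads. Bars are 95% counting intervals, 1 library a group; starts at 31 to 60 lie above 0 and starts at 71 to 80 and 91 to 100 below it on this scale, while the scale of miRNA hairpin reads moves each point up by 0.83.

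The neighbouring stretches had fewer reads. Starts at bases 41 to 50 had 61 and 53 reads (log2 0.74, 0.17 to 1.29), and starts at 51 to 60 had 295 and 229 (0.57, 0.32 to 0.82). Starts at bases 61 to 70 had 78 and 28 reads (-0.53, -1.22 to 0.098). Starts at bases 71 to 80 had 178 and 43 reads, 1.43% and 0.730% of the 5S reads, and stood lowest (log2 -1.10, -1.63 to -0.63). The last was below 0 per miRNA hairpin read too, at -0.27. In the stretches that start at bases 1, 11, 21, 81 and 101, each with few reads, the interval included 0.

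GC content moves with the ratio between these libraries. Over all described sequences, the median log2 ratio was -0.52 at 40 to 50% GC, -0.19 at 50 to 60%, -0.0057 at 60 to 70% and 0.42 at 80 to 90%. The mean GC content was 60.7% over the whole 15 to 17 nt class in the DMSO library and 64.2% in the SB431542 library, but 59.1% and 58.8% for the 5S reads. Reads starting at 31 to 40, higher with SB431542, had a mean GC content of 53.8% with DMSO. Those at 91 to 100, lower with SB431542, had 60.1%. Starts at 51 to 60, also higher with SB431542 (log2 0.57), had 68.5%. Whether GC content accounts for the difference between the blocks was not tested. After each SB431542 count was divided by the median ratio of non-5S sequences of like GC content, the log2 ratio was 0.90 for starts at 31 to 40, -0.32 for starts at 91 to 100 and -0.72 for starts at 71 to 80, whose reads had 47.1% GC with DMSO.

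Of the 18 sequences with at least 50 reads, 2 were at least 2-fold higher with SB431542 and 0 at least 2-fold lower. Over all 2446 sequences of 15 to 17 nt with as many reads, 6.75% were at least 2-fold higher and 13.7% at least 2-fold lower. The median log2 ratio was 0.0094 for the 5S sequences and -0.093 for all. Of the 18 counting intervals 4 were wholly above 0, 2 wholly below it, and 12 included it. Over all 2446 sequences 23.6% were wholly above 0 and 29.5% wholly below it, so the share above is near that of all sequences. The split moves with the scale: 9 of the 18 log2 ratios were above 0 and 9 below it per 15 to 17 nt reads, and 18 above and 0 below per miRNA hairpin read. All 4 with an interval above 0 start at bases 31 to 40, and both with an interval below it end at base 112. Sequences of a block share most of their bases, so they are not separate observations.

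The sequence of bases 36 to 50 had 16 reads with DMSO and 36 with SB431542, 4.23-fold higher per 15 to 17 nt reads (log2 2.08, 1.22 to 3.05). Bases 35 to 49 had 38 and 42 reads and were 2.11-fold higher (log2 1.08, 0.41 to 1.75). These 2 had more reads in the SB431542 library although it is the smaller. With edgeR or DESeq2 factors 1 sequence was past 2-fold. Bases 34 to 49 had a log2 ratio of 0.77 (0.57 to 0.97) and bases 34 to 50 of 0.65 (0.49 to 0.81), the fifth highest being bases 34 to 48 with 62 and 48 reads (0.57, -0.0078 to 1.13). Within this block the ratio was not even. Bases 35 to 50 had 174 and 90 reads and a log2 ratio of -0.011 (-0.40 to 0.36), and bases 35 to 51 had 59 and 37 reads (0.27, -0.37 to 0.88). Bases 33 to 49 had 36 and 26 reads (0.47, -0.32 to 1.23).

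Among the described sequences that end at base 112 the ratios lay close together. The log2 ratio was -0.34 for the 15 nt sequence, -0.43 (-0.80 to -0.082) for bases 97 to 112 and -0.33 (-0.72 to 0.031) for bases 96 to 112. The sequence of bases 97 to 111 had the lowest value of the 18, with 49 and 17 reads (-0.56, -1.48 to 0.23). Bases 98 to 113 stood at -0.33 (-0.77 to 0.090) and bases 98 to 114 at -0.12 (-0.54 to 0.29). Bases 74 to 90, with 37 and 13 reads, had -0.54 (-1.61 to 0.37). Between the blocks, bases 60 to 74 had 77 and 49 reads (0.29, -0.26 to 0.82) and bases 60 to 75 had 81 and 41 (-0.037, -0.62 to 0.51).

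**Figure D3:**
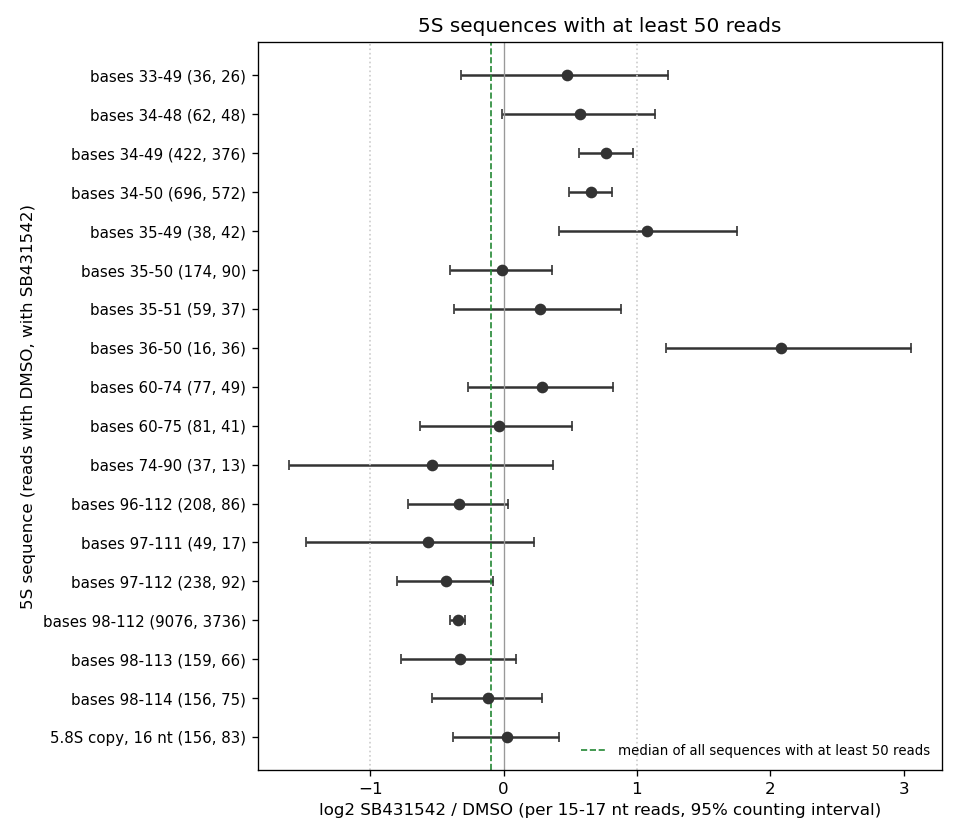
Log2 ratio of SB431542 to DMSO, per 15 to 17 nt reads, for the 18 sequences with at least 50 reads, ordered by their start on the reference, with 95% counting intervals and reads in each library in the labels (1 library a group). Sequences within bases 33 to 51 run from -0.011 to 2.08 and those within bases 96 to 114 lie left of 0 on this scale; the dashed line is the median of all 2446 sequences, -0.093.

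Length followed the leading sequence. Reads of 15 nt were 76.2% of the 5S reads with DMSO and 68.2% with SB431542, against 20.1% and 20.5% of all 15 to 17 nt reads. Reads of 17 nt were 11.9% and 16.5% of the 5S reads, against 49.5% and 49.1% of all. Without the 98 to 112 sequence, 15 nt reads were 12.4% and 13.2% of the 5S reads and 17 nt reads 43.8% and 45.2%. The length limit of the rule falls inside the ladder of reads that start at base 98. Just outside it, bases 98 to 111 (14 nt) had 1311 and 443 reads, and just inside it stands the 15 nt sequence itself. Other transcripts were not searched for the 14 nt sequence.

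**Figure D4:**
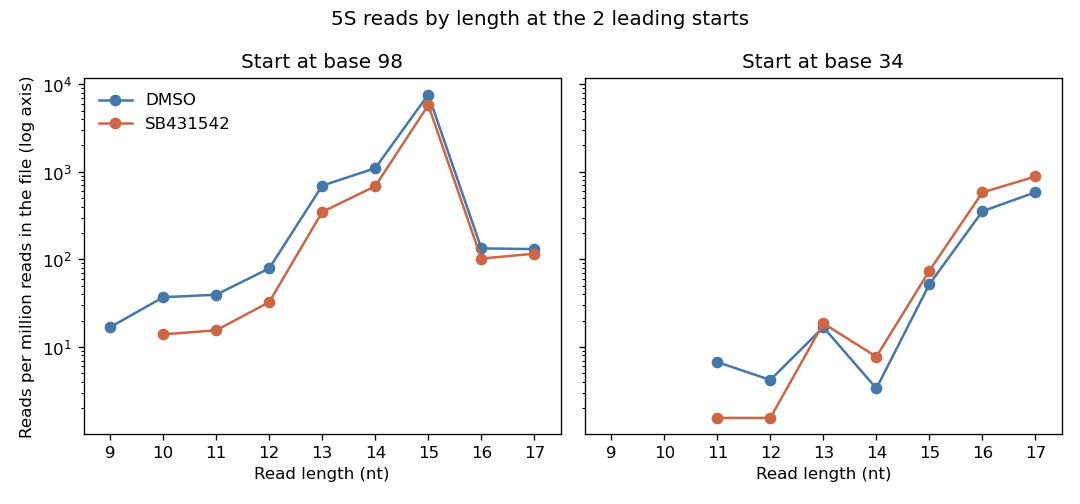
Reads that start at base 98 (left) or base 34 (right) of the reference by length, scaled to 1000000 reads in the file, on a log axis, in the DMSO and the SB431542 library (1 each); lengths with no read are left out. The reads from base 98 peak at 15 nt (9076 and 3736 reads) and those from base 34 are most at 17 nt (696 and 572), the longest length in the files. Reads below 15 nt were matched to the reference only, and other transcripts were not searched for them.

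Copy variants were few once a ribosomal RNA of another kind was set apart. Of the 199 sequences, 162 are in the reference and 37 are only in other copies, with 216 reads with DMSO (1.73% of the 5S reads, 1.51 to 1.98) and 115 with SB431542 (1.95%, 1.61 to 2.34). Most of these reads, 182 and 96, were of 3 sequences that, among annotated transcripts, are only in Gm24601. Matches outside annotated transcripts were not searched, so these reads cannot be placed at that gene. That gene lies on the minus strand of chromosome 6 at 94826781 to 94826923 (GRCm38). Its annotated sequence aligned better to the 5.8S gene n-R5-8s1 (score 67.5) than to 5S (score 3.5), so these are fragments of a 5.8S-like sequence that the rule takes in. It is shown because it is the most abundant sequence outside the reference.
Gm24601, 16 nt: tgaattgcaggacaca
Its reads numbered 156 and 83, in the same order (log2 0.030, -0.38 to 0.42). The 15 nt sequence without its last base had 24 and 13. Leaving out Gm24601, 34 sequences with 34 and 19 reads remained, 0.273% (0.19 to 0.38) and 0.322% (0.19 to 0.50) of the 5S reads.

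Substitutions are written with the reference base first, then the base number and the base of the copy. Among all sequences that differ from a window of the reference by a lone substitution, 3828 are held by an annotated 5S copy and 11142 are not. Of the former 28 were seen (0.731%), with 28 reads with DMSO and 18 with SB431542, and of the latter 73 (0.655%), with 97 and 49 reads. The variant with most reads was T62A, carried in these sequences by 4 copies of the chromosome 8 array, Gm24312, n-R5s106, n-R5s118 and n-R5s130. Its leading sequence is shown with the substituted base in capitals, beside the 17 nt sequence of the next variant, C44T.
T62A, bases 62 to 77: Acgggcctggttagta
C44T, bases 34 to 50: ctcgtctgatTtcggaa
In 7 sequences T62A had 12 reads with DMSO, against 363 reads of all placed 5S sequences over base 62 (3.20%, 1.66 to 5.52). With SB431542 it had 7 against 276 (2.47%, 1.00 to 5.03). Each percent is of both counts together. T62A and C44T are held by annotated copies and so are also among the placed reads, and their reads enter the denominator again. The C44T substitution, carried in the sequences seen by n-R5s112, n-R5s120 and n-R5s125, had 3 and 2 reads against 1586 and 1304 (0.189% and 0.153%). Of the substitutions in no annotated copy, G75T had 7 reads against 367 with DMSO and 2 against 131 with SB431542, and G66T 4 and 5 reads. The intervals of T62A (from 1.66%) and G75T (0.756 to 3.82%) overlap with DMSO. The G75T reads are not among the placed reads, so these denominators are not alike. Of the 45 possible single substitutions of the 98 to 112 sequence 32 were seen, with 62 reads with DMSO (0.683% of its reads) and 25 with SB431542 (0.669%).

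Most 5S fragments cannot be placed at a single gene. The 98 to 112 sequence is in 57 copies and that of bases 34 to 50 in 52, and 13 of the 199 sequences are in a single copy. In all, 136 of the 199 are also in another annotated gene. Tmem38b, which encodes an intracellular cation channel, holds 99 of them with 85.0% of the 5S reads with DMSO and 75.2% with SB431542, and the copy n-R5s185 (chromosome 4, 53860652 to 53860770, plus strand, 95.8% identical to the reference) overlaps an exon of that gene. The predicted miRNA gene Gm47301 on chromosome 4 (149817764 to 149817823) holds 89, with 2138 and 1622 reads. Gm47285, Gm47276 and Gm47281 are genes of the same kind. None of the 199 sequences is in a hairpin or mature miRNA of the 2743 RefSeq entries. Reads antisense to the copies numbered 9 with DMSO and 1 with SB431542.

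Other RNAs are given only to place these values. Sense fragments of the other nuclear ribosomal RNA genes had a share of 5.89% in the DMSO library and 5.03% in the SB431542 library (log2 -0.23, -0.25 to -0.21), but reads antisense to these genes were 12.1% and 9.78%. Sense and antisense here follow the annotated strand of 4 genes, of which Gm42418 supplied 57087 and 25164 sense reads. The source of the antisense reads was not tested, so the sense share is not the whole ribosomal RNA share. Mitochondrial ribosomal RNA stood at 0.0500% and 0.0334% (-0.58, -0.84 to -0.33). The other products of RNA polymerase III, which were mostly Rn7s1 of the signal recognition particle (2006 and 1336 reads), made up 0.232% and 0.310% (0.41, 0.32 to 0.51). Spliceosomal snRNA had a log2 ratio of -0.33, snoRNA and scaRNA of -0.39, and miRNA hairpins of -0.83. The scale of miRNA hairpin reads adds 0.83 to each of these. Messenger RNA fragments of the partners of 5S RNA, with 5 of 6 genes seen, had 205 and 124 reads (0.21, -0.12 to 0.54), of which Rpl5 supplied 172 and 93.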

How the data were processed

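Small RNA reads of 2 libraries of J1 cells were used, 1 with DMSO and 1 with SB431542. Per the labels, total RNA was isolated with TRIzol and 1 µg went into an Illumina TruSeq RNA kit; how reads were trimmed, size-selected or filtered is not given in the sources used. Each deposited file lists read counts, not normalized, for sequences of 3 to 17 nt (1190074 and 645925 reads). The submitters' processing notes name the build mm9, but coordinates here are those of GENCODE M21 on GRCm38.

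Sequences of 15 to 17 nt were matched exactly to all transcripts. Copies were placed on the reference by global alignment, and 3 sequences only in Gm24601 were left unplaced. The whole reference sequence is not reported here. Ratios are per 15 to 17 nt reads with a pseudocount of 0.5 read. Intervals of shares are Clopper-Pearson, those of ratios exact conditional binomial and those of differences exact conditional odds ratios. They cover counting error only, since amplified reads are not independent molecules. A count of 0 allows up to 3 reads, 0.000303% with DMSO and 0.000580% with SB431542. Sequences with at least 50 reads were described. No test between groups was made.

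The members, lists and rules were chosen with earlier results of these data known. Named sequences were the 10 most abundant, the leading end sequences, the 5 highest and 5 lowest ratios and the 3 most abundant variant sequences; the rest of the 18 described are also given. The 10-base stretches, the 98 and 34 blocks, the substitution counts and the length ladders were chosen after the data were seen. Alternatives were scales from edgeR TMM factors, DESeq2 size factors, all reads or miRNA hairpin reads, other lengths, end windows, read minima and pseudocounts, thinning, and leaving out sequences. On simulated data, 200 of 200 windows were placed correctly. Of sequences simulated at 4-fold higher, 50 of 50 were called, at 2-fold higher 26 of 50 and at 2-fold lower 20 of 44. A fold of 2 is the threshold of the call itself, so counts fall on either side of it. Of 2176 unchanged sequences 3 were called higher and 7 lower. The simulated counts held counting error only, so they cannot show how often libraries that differ by chance would give such calls. Python 3.11.15, numpy 2.4.6, scipy 1.17.1, Biopython 1.88, ViennaRNA 2.7.2, matplotlib 3.10.9, R 4.3.3, edgeR 4.0.16 and DESeq2 1.42.0 were used.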

Additional observations from a re-analysis of the deposited data

How the results depend on the processing

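The log2 ratio of the 5S share was -0.14. It was -0.20 when divided by the whole file, -0.35 with edgeR TMM factors, -0.30 with DESeq2 factors, -0.057 after GC correction and -0.025 without sequences that match another gene. The last value rests on 277 reads with DMSO and 142 with SB431542, of which Gm24601 sequences supplied 182 and 96. The sign of the 5S ratio was the opposite per miRNA hairpin read (0.68), with 16 and 17 nt reads (0.28) or 17 nt reads (0.34) only, when distinct sequences were counted after thinning DMSO (0.19) and without the leading sequence (0.29). The 16 and 17 nt reads leave out the leading 15 nt sequence by construction. Among distinct sequences the leading sequence counts once, whatever its reads. The miRNA scale moves every log2 ratio by the same amount. Why the remaining alternatives moved the value was not tested. Against the main scale the edgeR, DESeq2 and miRNA scales shift every log2 ratio by -0.21, -0.16 and 0.83. The 31 to 40 stretch was above 0 on each of the 5 scales (0.45 to 1.49).

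The 5′ end share, 0.0080% with DMSO and 0.017% with SB431542, was 0 in both with 17 nt reads only, 0 with DMSO at the exact end, 0.024% and 0.051% with a window of 5 bases, 0.030% and 0.046% without the leading sequence, and 0.599% and 0.709% among distinct sequences. The 3′ end share was 0.466% and 0.339% with a window of 5 bases, 2.99% and 2.13% among distinct sequences, 0.203% and 0.205% with 17 nt reads only, and 0.296% and 0.232% without the leading sequence. The share outside the reference was 77.6% and 80.3% without sequences that match another gene, 15.6% and 12.1% among distinct sequences, 0.879% and 0.924% with 17 nt reads only, and 0.277% and 0.328% without Gm24601. Leaving out sequences that match another gene kept only 277 5S reads with DMSO and 142 with SB431542. Of these the Gm24601 sequences supplied 182 and 96, and most reads of the reference were removed. Reads of 15 nt were 15.2% and 14.8% without sequences that match another gene, and 12.4% and 13.2% without the leading sequence; reads of 17 nt were 18.1% and 14.1%, and 43.8% and 45.2%. The number of sequences at least 2-fold higher, 2, was 8 with a minimum of 10 reads, 57 with none, 0 with 200, and 1 with edgeR or DESeq2 factors; the number lower, 0, was 10 with a minimum of 10 reads and 33 with none, where low counts give large ratios. The shares over all sequences, 6.75% higher and 13.7% lower, were counted only for a minimum of 50 reads on the main scale. The counts at other settings have no such background, so they are not read as a result about 5S. No paired analysis was possible because each group has 1 library, and for the same reason no library could be left out.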

Other observations

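Reads shorter than 15 nt lay outside the rule and are given as values. They were matched to the reference 5S only, and other transcripts were not searched for them. The shorter the sequence, the more likely it is to occur in other RNAs as well, so these reads cannot be assigned to 5S. From the start at base 98 the 14 nt sequence had 1311 reads with DMSO and 443 with SB431542, the 13 nt sequence 827 and 225, the 12 nt sequence 94 and 21, the 11 nt sequence 47 and 10 and the 10 nt sequence 44 and 9. Per reads in the file, SB431542 to DMSO, the log2 ratio stood at -1.35 at 10 nt (-2.63 to -0.35), -1.30 at 11 nt, -1.25 at 12 nt, -0.99 at 13 nt (-1.22 to -0.78), -0.68 at 14 nt (-0.84 to -0.53), -0.40 at 15 nt (-0.45 to -0.34), -0.38 at 16 nt and -0.17 at 17 nt (-0.59 to 0.23). Per miRNA hairpin read it was below 0 up to 13 nt (-0.47 at 10 nt, -0.11 at 13 nt) and above 0 from 14 nt (0.20 at 14 nt, 0.71 at 17 nt). Reads of 14 nt as a whole made up 9.39% of the DMSO file and 10.2% of the SB431542 file. Reads of 13 nt made up 4.23% and 6.05%, of 12 nt 2.00% and 2.63% and of 11 nt 0.655% and 0.750%. Reads of 10 nt as a whole were lower with SB431542, at 0.306% and 0.174%, as was the 10 nt sequence from base 98. Among reads of exactly 13 nt, those in the reference 5S were 1.93% and 0.734%, and among reads of 14 nt 1.74% and 0.993%. From the start at base 34 the lengths went the other way in abundance: 62 and 48 reads at 15 nt, 422 and 376 at 16 nt and 696 and 572 at 17 nt, the longest length in the files, so the full extent of that fragment is not known here. Its 14 nt sequence had 4 and 5 reads and its 13 nt sequence 20 and 12.

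Bases added after base 112 that do not match the reference were rare. Reads of the 98 to 112 sequence with 1 or 2 further bases numbered 315 with DMSO and 141 with SB431542 where those bases are in the reference, and 15 and 2 where they are not.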
